A study of Mus musculus with 4 samples.

Results

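The circadian clock genes were followed in RNA of brain endothelial cells from C57BL/6 mouse embryos at embryonic day 18. There were 10 of them, Clock, Arntl, Per1, Per2, Per3, Cry1, Cry2, Nr1d1, Nr1d2 and Dbp, among 17905 genes listed in either deposited table. They were found by gene symbol, and 9 of the 10 were listed in both tables. The list was chosen by role but selected on results of this same contrast, in which Per2 had stood among the genes with the largest differences, so the genotype values of the members are given as a description with no test. The groups were STINGECKO, named for an endothelial knockout of STING, the adaptor of cytosolic DNA sensing (2 libraries, numbered 1 and 2), and wild type, WT (2 libraries, numbered 3 and 5). Triplicates are named in the study's design, while 2 libraries of each genotype were analysed here. One table holds STINGECKO 1 with WT 3 and the other STINGECKO 2 with WT 5. No source used here gives the Cre driver, the embryos per library, the isolation of the cells or the time of day of collection. Nothing in the labels says that libraries of a genotype came from separate embryos, so the spread between them may be technical.

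The mammalian clock is a feedback loop of transcription. CLOCK and BMAL1, the protein of Arntl, bind E-boxes and switch on the Per and Cry genes, whose proteins return to the nucleus and repress CLOCK and BMAL1. In a further loop the nuclear receptors REV-ERB alpha and beta, encoded by Nr1d1 and Nr1d2, repress Arntl through ROR elements, and Dbp carries the rhythm on to genes with D-boxes. In most adult tissues Arntl runs roughly in antiphase to Per2 and Dbp, and blood vessels are among the tissues with a clock of their own.

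Promoter windows show where these elements lie. RefSeq windows of GRCm38.p6, from 250 bases before to 50 bases after a transcription start, were found for 9 members in 13 windows. No window of Per2 was used here, so nothing below says whether Per2 has these elements. An E-box (CACGTG, the same on both strands) was in 2 of the 13, in Per1 and Cry1, and in 7.15% of all 32851 windows of this length. The related letters CACGTT, read on both strands and not overlapping the first, were in 3, in Cry1, Cry2 and Nr1d1, and in 4.68% of all windows. A D-box (TTANGTAA) was in 1, with 2 sites in Per3, and in 2.32% of all. A core ROR site (TAGGTCA) was in 1, in Arntl, and in 2.61% of all. The windows below are shown because they hold the elements of each arm of the loop, with every match in capitals, and each is written in the direction of its gene. They lie at chr11:69098699-69098998 on the plus strand (Per1), chr10:85185005-85185304 on the minus strand (Cry1), chr4:151044616-151044915 on the minus strand (Per3), chr11:98775328-98775627 on the minus strand (Nr1d1) and chr7:113207261-113207560 on the plus strand (Arntl, from the downstream one of its 2 starts). A match is a description of letters and not of binding.
Per1: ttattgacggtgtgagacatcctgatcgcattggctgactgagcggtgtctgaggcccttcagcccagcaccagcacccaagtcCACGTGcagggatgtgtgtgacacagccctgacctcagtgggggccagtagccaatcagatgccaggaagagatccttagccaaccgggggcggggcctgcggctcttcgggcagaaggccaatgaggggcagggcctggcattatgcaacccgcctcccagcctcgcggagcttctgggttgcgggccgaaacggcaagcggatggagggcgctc
Cry1: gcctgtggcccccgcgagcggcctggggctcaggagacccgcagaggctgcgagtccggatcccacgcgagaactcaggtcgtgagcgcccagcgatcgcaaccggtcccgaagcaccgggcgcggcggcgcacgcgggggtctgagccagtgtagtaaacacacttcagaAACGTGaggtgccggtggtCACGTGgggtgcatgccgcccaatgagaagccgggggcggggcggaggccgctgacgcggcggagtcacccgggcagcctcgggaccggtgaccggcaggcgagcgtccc
Per3: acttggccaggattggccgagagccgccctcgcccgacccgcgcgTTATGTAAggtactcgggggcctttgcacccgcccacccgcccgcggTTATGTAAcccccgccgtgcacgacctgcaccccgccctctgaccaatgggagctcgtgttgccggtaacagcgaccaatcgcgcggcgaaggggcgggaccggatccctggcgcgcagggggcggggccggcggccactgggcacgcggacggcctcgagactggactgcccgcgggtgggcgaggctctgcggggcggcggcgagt
Nr1d1: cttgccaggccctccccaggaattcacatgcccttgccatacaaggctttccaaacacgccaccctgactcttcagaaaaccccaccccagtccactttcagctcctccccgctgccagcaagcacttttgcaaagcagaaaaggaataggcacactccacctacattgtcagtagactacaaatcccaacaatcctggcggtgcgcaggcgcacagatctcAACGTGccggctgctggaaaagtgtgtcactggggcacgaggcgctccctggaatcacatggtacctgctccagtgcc
Arntl: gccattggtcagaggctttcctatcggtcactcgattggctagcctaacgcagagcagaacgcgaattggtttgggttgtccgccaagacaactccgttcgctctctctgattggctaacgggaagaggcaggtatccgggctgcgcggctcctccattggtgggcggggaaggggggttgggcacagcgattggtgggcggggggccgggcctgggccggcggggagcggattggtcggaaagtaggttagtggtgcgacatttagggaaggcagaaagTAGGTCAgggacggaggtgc

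The E-box of Per1 lay 166 to 161 bases before the start and that of Cry1 60 to 55 bases before it. In the Nr1d1 window the match, which reads AACGTG along the gene, lay 28 to 23 bases before the start. The Per3 sites lay 205 to 198 and 158 to 151 bases before the start, and the Arntl site 31 to 37 bases after it. Per1 and Cry1, which among the 9 members with a window had an E-box in it, differed over the libraries: STINGECKO 2 was the highest library for Per1 and the lowest for Cry1.

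The libraries themselves differed in ways that bear on the members. They held between 18610298 and 22169261 listed reads, so that 1 read was 0.0451 to 0.0537 CPM (a gene's reads scaled to a common library size). STINGECKO 2 had 0 reads for 13.2% of the 14100 genes in both tables, against 2.39% to 5.25% in the other libraries. STINGECKO 1 had 3623 reads of the Y-linked gene Ddx3y and 0 of Xist, while Xist had 876 to 3374 reads in the others. Ddx3y had 0 reads in WT 3 and was not listed for STINGECKO 2 and WT 5. By these genes sex differed within STINGECKO and was not balanced between the genotypes. Tmem173, the gene of STING, was at 3.65 and 8.32 CPM in STINGECKO and at 4.48 and 6.27 CPM in WT, so it did not separate the labels, and the deleted part is not given. Of 12 endothelial markers all were abundant, with summed levels of 30464 and 28931 CPM in STINGECKO and 29832 and 29480 CPM in WT, so the labelled cell type had its defining genes in every library.

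Per2 was the member with the largest difference between the genotypes, and Nr1d1 the only other member whose genotypes did not overlap. Per2 was nearly without reads in STINGECKO while its relatives Per1 and Per3 were present there. Nr1d1 was higher in STINGECKO by a log2 fold change of 1.29. The activators Clock and Arntl varied more between the WT libraries than between the genotypes.

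**Figure D1:**
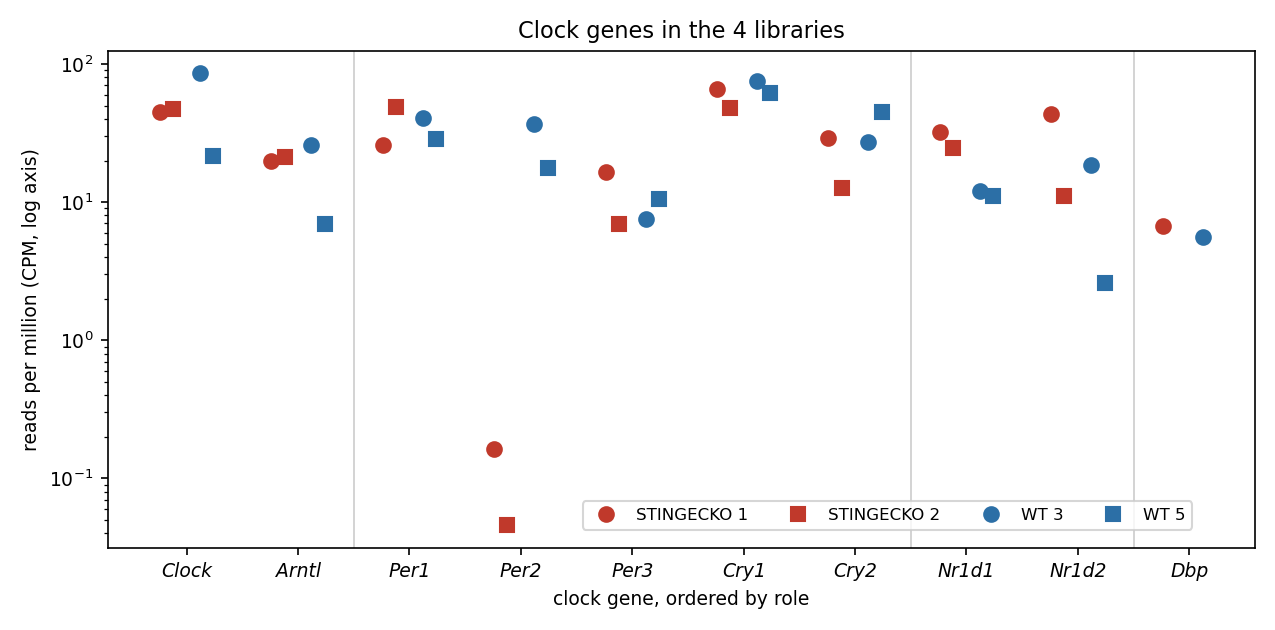
Level of each clock gene in CPM (log axis) in STINGECKO 1 and 2 (red) and WT 3 and 5 (blue), 1 point per library, with vertical lines between activators, repressors, nuclear receptors and output. Per2 lies at 0.164 and 0.0457 CPM in STINGECKO and at 36.7 and 17.7 CPM in WT; Dbp has points for STINGECKO 1 and WT 3 only.

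Among the activators, Clock (ENSMUSG00000029238, chromosome 5, 76209868 to 76304792, minus strand, GRCm38) encodes the DNA-binding partner of BMAL1. It was at 44.9 and 47.5 CPM in STINGECKO 1 and 2 (823 and 1039 reads) and at 85.6 and 21.5 CPM in WT 3 and 5 (1851 and 445 reads). The STINGECKO libraries were alike and lay between the WT libraries. The WT libraries were 3.99-fold apart, and of 10155 genes averaging at least 5 CPM and compared between them 6.67% were at least as far apart. The log2 fold change of STINGECKO over WT was -0.21 (SE 0.72, edgeR), and it was 1.11 without WT 3 and -0.88 without WT 5.

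Arntl (ENSMUSG00000055116, chromosome 7, 113207465 to 113314126, plus strand), which encodes BMAL1, took the same order over the libraries as Clock. It was at 19.9 and 21.3 CPM in STINGECKO (365 and 466 reads) and at 25.8 and 6.99 CPM in WT 3 and 5 (559 and 145 reads). Again STINGECKO lay within the range of WT, whose libraries were 3.70-fold apart, with 7.35% of genes at least as far apart. Its log2 fold change was 0.33 (SE 0.91, edgeR), 1.56 without WT 3 and -0.32 without WT 5. As a level per kilobase of exon, Clock over Arntl was 1.24 and 1.22 in STINGECKO and 1.81 and 1.68 in WT, so the ratio of the partners varied less over the libraries than either gene.

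Of the repressors, Per2 (ENSMUSG00000055866, chromosome 1, 91415982 to 91459324, minus strand) had 3 and 1 reads in STINGECKO 1 and 2, against 793 and 367 in WT 3 and 5. The exact Poisson intervals (95%) of the STINGECKO counts were 0.619 to 8.77 and 0.0253 to 5.57 reads. Summed over libraries, the level in STINGECKO was 0.00363 times that in WT, with an exact binomial interval of 0.000988 to 0.00933. These intervals cover counting error only and leave out the spread between libraries. They are a description and no test, since results of this contrast were used in choosing the list. Both STINGECKO libraries lay far below both WT libraries, and the WT libraries were 2.07-fold apart. The log2 fold change of Per2 was -7.96 (SE 1.37, edgeR), from -9.04 without STINGECKO 1 to -7.32 without STINGECKO 2.

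Other genes had levels near to none in one genotype and well above it in the other. Taking the lower WT level of Per2, 17.7 CPM, and its higher STINGECKO count, 3 reads, as limits, 6412 genes reached that level in both WT libraries, and 2 of them, Per2 and Dand5, had at most 3 reads in each STINGECKO library. In the other direction 5994 genes reached it in both STINGECKO libraries, and 1 of them, Cd276, had at most 3 reads in each WT library. The limits were set on Per2 itself, so Per2 meets them by construction, the counts are a description, and these genes were named after their values were seen. Mbd4, Slc4a8 and Apba2, the genes nearest to Per2 in pattern, had at most 1 read in each STINGECKO library and missed the limit because they were at 9.02, 7.81 and 9.12 CPM in WT 5. Zeros were more common at this level in STINGECKO 2. Among genes averaging 5 to 20 CPM over the remaining libraries, where Per2 lay, 15.7% had 0 reads in STINGECKO 2 and 1.40% in STINGECKO 1. In WT 3 and WT 5 the shares were 4.51% and 2.63%. The WT mean of Per2 alone was 27.2 CPM, which is not the measure that sets these ranges. Among genes averaging 20 to 50 CPM over the remaining libraries, 2.18% had 0 reads in STINGECKO 2 and 0.0349% in STINGECKO 1.

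Astrocyte and neuronal markers summed to less in STINGECKO, with 0 of 16 tested called by edgeR's quasi-likelihood test, 3 at an unadjusted p under 0.05 (4.80% of all genes were) and 2 called by DESeq2 (0.651% of all were). The summed level of the 8 astrocyte markers in both tables, of 10 fixed, was 314 and 215 CPM in STINGECKO and 372 and 342 CPM in WT. Most of that sum was Gja1, a gap junction protein, at 263 and 210 CPM in STINGECKO and 277 and 249 CPM in WT. The other 7 summed to 50.7 and 5.44 CPM in STINGECKO and 94.8 and 92.6 CPM in WT. Over the 8 the median log2 fold change was -3.26, beside -0.03 over all genes tested, with 8 below 0 and 5 whose genotypes did not overlap, where 19.0% of all genes were lower without overlap. It was the same with Acsbg1 at a floor of 3 reads per library. Acsbg1 was at 0 in both STINGECKO libraries, and Aqp4, Aldh1l1 and Slc1a2 were at 0 in STINGECKO 2. The 8 neuronal markers in both tables, of 10 fixed, summed to 63.8 and 42.2 CPM in STINGECKO and 136 and 87.6 CPM in WT, with a median log2 fold change of -1.37, 7 below 0 and 4 lower without overlap. Syn1 was at 0 in both STINGECKO libraries, Snap25 in STINGECKO 1 and Gap43 in STINGECKO 2. In these bulk samples fewer cells of a type and less RNA per cell cannot be told apart, and the part of such cells in the Per2 values was not tested.

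Per1 (ENSMUSG00000020893, chromosome 11, 69095217 to 69109960, plus strand), the relative of Per2 that also responds to hormones and to cyclic AMP, was at 25.9 and 48.9 CPM in STINGECKO (475 and 1069 reads) and at 40.5 and 28.5 CPM in WT (875 and 590 reads). The genotypes overlapped fully, with both WT values inside the range of STINGECKO. Its highest value was in STINGECKO 2, the library in which Per2 had 1 read. Per kilobase of exon, Per2 over Per1 was 0.00607 and 0.000900 in STINGECKO and 0.871 and 0.598 in WT. The log2 fold change of Per1 was 0.12 (SE 0.57, edgeR), turning to -0.41 without STINGECKO 2 and to -0.11 without WT 5.

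Per3 (ENSMUSG00000028957, chromosome 4, 151003652 to 151044665, minus strand), the period gene that the core loop can do without in mice, was the lowest member per length in WT 3, at 0.78 CPM per kilobase. It was at 16.6 and 6.996 CPM in STINGECKO (305 and 153 reads) and at 7.49 and 10.6 CPM in WT (162 and 219 reads). STINGECKO 1 was the high library, and STINGECKO 2 lay just below WT 3. Its log2 fold change was 0.39 (SE 1.03, edgeR), and -0.37 without STINGECKO 1.

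The cryptochromes carry most of the repression of CLOCK and BMAL1. Cry1 (ENSMUSG00000020038, chromosome 10, 85131700 to 85185064, minus strand) had the narrowest range of the members over all 4 libraries, at 65.7 and 48.3 CPM in STINGECKO (1206 and 1057 reads) and 75.1 and 61.3 CPM in WT (1625 and 1270 reads). Within a genotype other members were closer, Clock, Arntl and Nr1d1 between the STINGECKO libraries and Nr1d1 between the WT libraries. Cry1 was also the highest member per length in all 4 libraries, at 19.7 and 14.5 CPM per kilobase in STINGECKO and 22.5 and 18.3 in WT. The genotypes overlapped, and the log2 fold change was -0.26 (SE 0.39, edgeR). Cry1 was below 0 with all 4 libraries and without each one in turn.

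Cry2 (ENSMUSG00000068742, chromosome 2, 92403646 to 92434043, minus strand) was at 29.1 and 12.6 CPM in STINGECKO (533 and 275 reads) and at 27.1 and 45.2 CPM in WT (586 and 938 reads). STINGECKO 2 was low and WT 5 high, while STINGECKO 1 and WT 3 were close. Per kilobase, Cry1 over Cry2 was 4.28 and 7.27 in STINGECKO and 5.25 and 2.56 in WT. The log2 fold change of Cry2 was -0.80 (SE 0.71, edgeR), from -1.52 without STINGECKO 1 to -0.31 without STINGECKO 2. An antisense gene, D930015M05Rik, covers 4.67% of its exon bases.

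The nuclear receptors were the members that were higher in STINGECKO in both deposited pairs. Nr1d1 (ENSMUSG00000020889, chromosome 11, 98767932 to 98775333, minus strand) was at 32.3 and 24.5 CPM in STINGECKO (592 and 535 reads) and at 12.1 and 11.1 CPM in WT (261 and 231 reads). Both STINGECKO values lay above both WT values. The level was 28.4 ± 5.52 CPM in STINGECKO and 11.6 ± 0.655 CPM in WT (SD, n = 2 each). Its log2 fold change was 1.29 (SE 0.71, edgeR) and ranged from 1.08 to 1.48 when each library was left out. Thra, on the opposite strand, covers 8.55% of its exon bases and had 1942 and 3072 reads in STINGECKO and 2414 and 1874 in WT. Without a stated strand setting, reads of the overlap cannot be told apart.

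Nr1d2 (ENSMUSG00000021775, chromosome 14, 18204054 to 18239127, minus strand) was at 43.8 and 11.2 CPM in STINGECKO (803 and 244 reads) and at 18.6 and 2.60 CPM in WT (402 and 54 reads). The genotypes overlapped, since WT 3 lay above STINGECKO 2. It was the member with the widest spread within WT, 7.14-fold, where 3.28% of genes were at least as far apart, and the libraries of STINGECKO were 3.92-fold apart. Its log2 fold change was 1.37 (SE 1.25, edgeR), 3.40 without WT 3 and 0.07 without STINGECKO 1. In WT 5 the level of Nr1d2 per kilobase was 0.133 times that of Nr1d1, and in WT 3 it was 0.876 times.

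Dbp (ENSMUSG00000059824, chromosome 7, 45705088 to 45710203, plus strand) was listed in one table, with 123 reads (6.70 CPM) in STINGECKO 1 and 120 reads (5.55 CPM) in WT 3. It was not analysed in STINGECKO 2 and WT 5. Sphk2, on the opposite strand, covers 539 of its exon bases and had 512 reads in STINGECKO 1 and 1961 in WT 3. Dbp is among the 10 members counted for the authors' marks of that table and in the order per kilobase within its libraries, and entered no other count of members below.

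Over the whole table, 0 of 13365 genes (0%) were called by edgeR's quasi-likelihood test after Benjamini-Hochberg adjustment, with a smallest adjusted p of 0.977 and 642 genes at an unadjusted p under 0.05. The 9 tested members, all of which passed the filter on low counts, were therefore among genes that were not called. DESeq2 called 87 genes (0.651%), 44 higher and 43 lower in STINGECKO, and 1 of the 9 members, Per2. The genotypes did not overlap in 1 member that was higher in STINGECKO, where 15.4% of all genes were so, and in 1 that was lower, where 19.0% were. Since this contrast was used in choosing the list, nothing is read from these counts. The median log2 fold change of the 9 members was 0.12, beside -0.03 over all genes tested, with 5 members above 0 and 4 below. It was -0.32 without WT 5, -0.17 without STINGECKO 1 and -0.05 without STINGECKO 2.

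**Figure D2:**
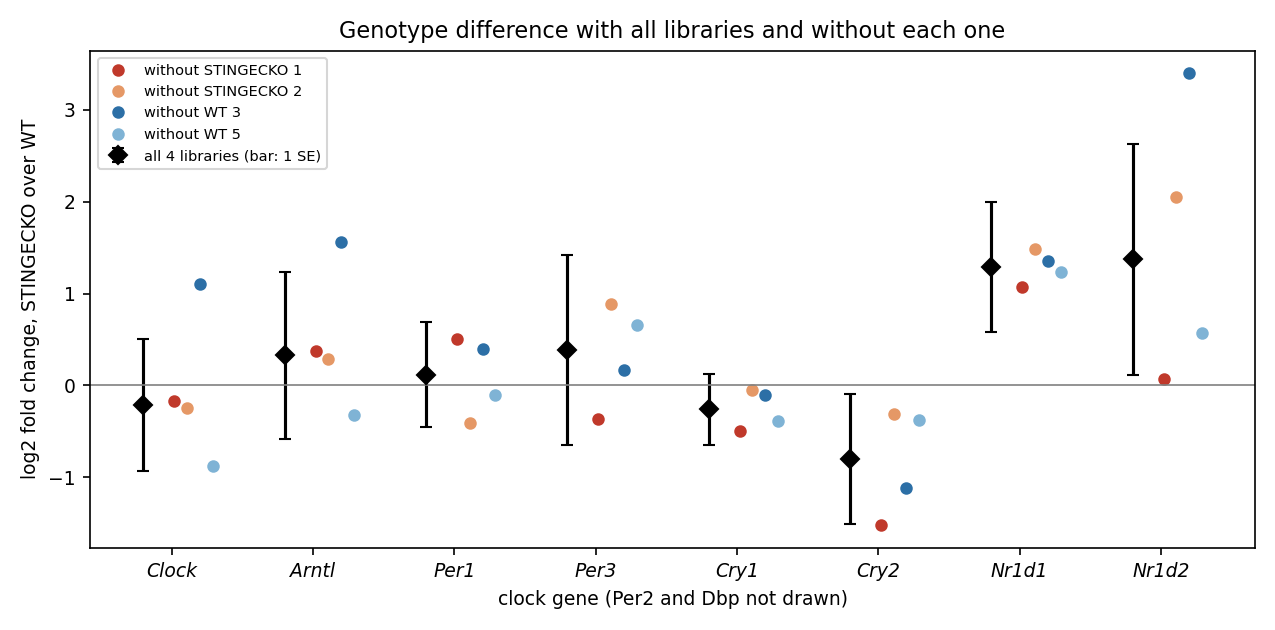
Log2 fold change of STINGECKO over WT for 8 clock genes with all 4 libraries (black, bar 1 SE) and with each library left out (coloured points). Nr1d1 stays between 1.08 and 1.48, Nr1d2 runs from 0.07 to 3.40, and Clock, Arntl, Per1 and Per3 have points on both sides of 0.

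Taken pair by pair, as the libraries were deposited, Clock, Arntl, Per1, Per3 and Cry2 pointed in opposite directions. Clock had a log2 ratio of -0.93 for STINGECKO 1 over WT 3 and 1.15 for STINGECKO 2 over WT 5, and Arntl of -0.38 and 1.61. Cry2 had 0.10 and -1.85, and Per3 1.15 and -0.59. The members with the same sign in both pairs were Per2 and Cry1, which were lower in STINGECKO, and Nr1d1 and Nr1d2, which were higher. Nr1d1 had log2 ratios of 1.42 and 1.13 and Nr1d2 of 1.24 and 2.10. No source used here says why these libraries share a table. Paired the other way, Cry1 and Nr1d2 each had both signs. Both were higher in STINGECKO 1 than in WT 5, Cry1 at 65.7 against 61.3 CPM and Nr1d2 at 43.8 against 2.60 CPM. Both were lower in STINGECKO 2 than in WT 3, Cry1 at 48.3 against 75.1 CPM and Nr1d2 at 11.2 against 18.6 CPM. Per2 and Nr1d1, whose genotypes did not overlap, kept their sign in any pairing.

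**Figure D3:**
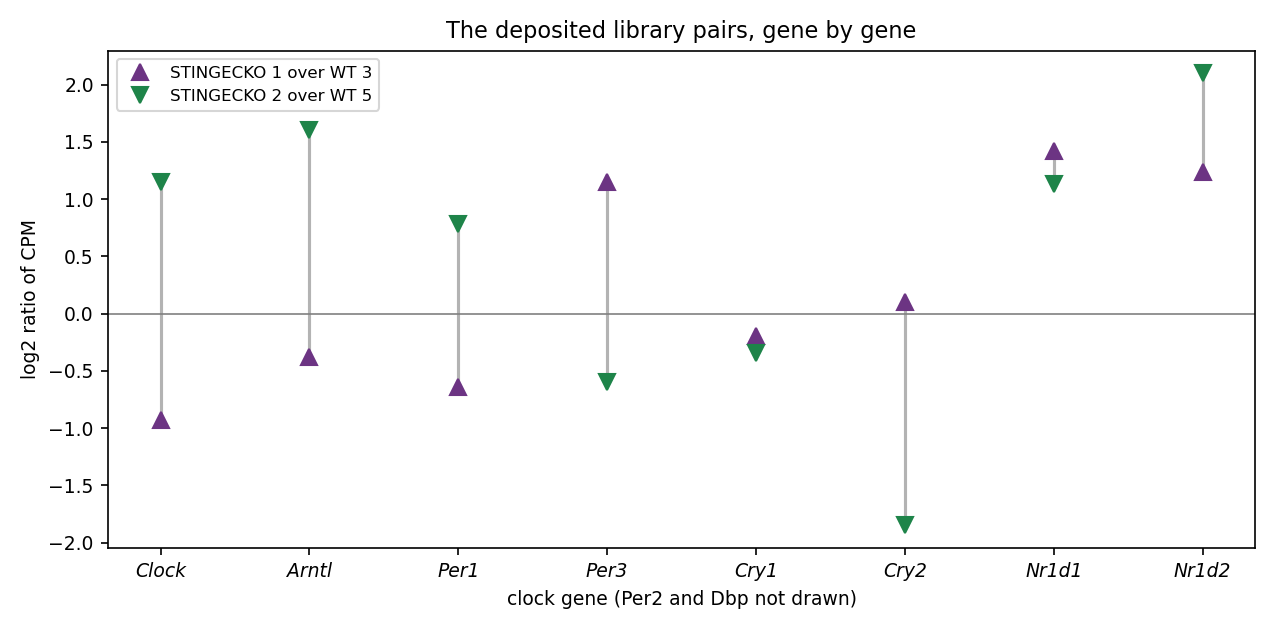
Log2 ratio of CPM for STINGECKO 1 over WT 3 (up-pointing triangles) and STINGECKO 2 over WT 5 (down-pointing triangles) for 8 clock genes, joined by a line. The lines of Nr1d1 and Nr1d2 lie wholly above 0 and that of Cry1 wholly below, while the other 5 cross 0. The pairs are those of the deposited tables, and paired the other way Cry1 and Nr1d2 would cross 0 too.

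The authors' deposited table of STINGECKO 1 and WT 3 marked 3 of 10 members as higher in STINGECKO, Nr1d1, Nr1d2 and Per3, where it marked 21.5% of all its genes. The authors' deposited table marked 1 as lower there, Per2, where it marked 19.4% of all. For STINGECKO 2 and WT 5 the authors' deposited table marked 4 of 9 members as higher, Arntl, Clock, Nr1d1 and Nr1d2, beside 17.0% of all, and 2 as lower, Cry2 and Per2, beside 35.1% of all. Those marks compare 1 library with 1 library.

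The members differed between libraries of a genotype as well. STINGECKO 1 and 2 were at least 2-fold apart in 4 of 9 members (Per2, Per3, Cry2 and Nr1d2), and in 34.7% of 9837 genes with a mean of at least 5 CPM. For Per2 this was 3 reads against 1, whose Poisson intervals overlapped. WT 3 and 5 were at least 2-fold apart in 4 of 9 (Clock, Arntl, Per2 and Nr1d2), and in 23.1% of 10155 genes. Median absolute log2 differences of the members were 0.92 within STINGECKO and 0.74 within WT, beside 0.67 and 0.48 over all these genes. WT 5 was the lowest library for Clock, Arntl, Nr1d1 and Nr1d2, and STINGECKO 2 for Per2, Per3, Cry1 and Cry2. Over all 13365 genes WT 5 was the lowest in 19.7% and STINGECKO 2 in 39.3%.

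Ordered by level per kilobase of exon, Cry1 led in every library and what followed it changed. In STINGECKO 1 it was followed by Nr1d1 (10.5 CPM per kilobase) and Nr1d2 (8.09), and in STINGECKO 2 by Per1 (8.68) and Nr1d1 (7.95). In WT 3 Per1 (7.18), Per2 (6.26) and Clock (6.23) came next, and in WT 5 Cry2 (7.16) and Per1 (5.05). Per2 was last in both STINGECKO libraries, the third of 10 members in WT 3 and the fifth of 9 in WT 5. By mean over the libraries of a genotype, the order in STINGECKO was Cry1, Nr1d1, Per1, Nr1d2, Clock, Cry2, Arntl, Per3 and Per2, and 5 of 8 neighbouring genes overlapped in their library values. Those apart were Cry1 above Nr1d1, Arntl above Per3, and Per3 above Per2. In WT the order was Cry1, Per1, Cry2, Per2, Clock, Nr1d1, Arntl, Nr1d2 and Per3, and 6 of 8 neighbours overlapped, those apart being Cry1 above Per1 and Nr1d1 above Arntl. Nr1d1 over Arntl per kilobase was 3.97 and 2.81 in STINGECKO and 1.14 and 3.90 in WT, so this ratio of the arms of the second loop overlapped between the genotypes.

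Other transcription factors of the clock were measured beside the members, from a list of 11, of which 9 were tested. The edgeR quasi-likelihood test called 0 higher and 0 lower, 0 had an unadjusted p under 0.05, and DESeq2 called 0. Ciart, a repressor of CLOCK and BMAL1, was at 14.6 and 106 CPM in STINGECKO and at 8.14 and 13.1 CPM in WT. Both STINGECKO values were above both WT values, but STINGECKO 2 alone stood far apart (log2 fold change 2.50, SE 1.04, edgeR). Arntl2, a paralog of Arntl, had 110 and 2 reads in STINGECKO and 168 and 146 in WT, again with STINGECKO 2 apart (log2 fold change -1.28, SE 1.95, edgeR). Ciart and Arntl2 were picked by the naming rule because their genotypes did not overlap. Of the 9, 1 was higher without overlap, beside 15.4% of all genes, and 1 was lower, beside 19.0% of all. The median log2 fold change of the 9 was -0.34, with 4 above 0 and 5 below, and it lay between 0.016 and 0.49 when any single library was left out.

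The D-box factors took different orders over the libraries. Tef was at 58.8 and 98.2 CPM in STINGECKO and 69.7 and 30.2 CPM in WT, and Hlf, its relative, at 1.31 and 19.8 CPM in STINGECKO and 27.0 and 2.32 CPM in WT. Nfil3, which represses through the same boxes, was at 9.43 and 51.2 CPM in STINGECKO and at 1.99 and 74.6 CPM in WT. Hlf and Nfil3 varied more than 5-fold within each genotype, and the genotypes overlapped in all of these. Rora, which activates through the ROR element that REV-ERB proteins repress, was at 30.5 and 27.4 CPM in STINGECKO and 13.4 and 29.4 CPM in WT. Tef, Hlf, Nfil3 and Rora were named after their values were seen.

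Of 16 genes for modifiers or partners of clock proteins, called modifiers here for short, 15 were tested. The edgeR quasi-likelihood test called 0 higher and 0 lower, 0 had an unadjusted p under 0.05, and DESeq2 called 0. The median log2 fold change was 0.05, with 10 above 0 and 5 below, and it was -0.14 without STINGECKO 1. Btrc, a ubiquitin ligase subunit that takes PER proteins to degradation, was at 35.6 and 84.6 CPM in STINGECKO and 24.8 and 33.7 CPM in WT (log2 fold change 1.04, SE 0.59, edgeR). Csnk1d, the kinase that phosphorylates PER proteins, was at 214 and 178 CPM in STINGECKO and 168 and 135 CPM in WT (log2 fold change 0.37, SE 0.25). Nono, a PER-binding nuclear protein, was at 146 and 99.4 CPM in STINGECKO and 164 and 207 CPM in WT (log2 fold change -0.60, SE 0.30). Usp7, a ubiquitin protease, was at 48.8 and 67.7 CPM in STINGECKO and 75.4 and 96.3 CPM in WT (log2 fold change -0.56, SE 0.37). In each of these 4 genes, picked by the naming rule for it, the genotypes did not overlap. Of the 15, 4 were higher without overlap, beside 15.4% of all genes, and 2 were lower, beside 19.0% of all.

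The 12 output genes that cycle in many adult tissues were all tested, and the edgeR quasi-likelihood test called 0 higher and 0 lower, with 0 at an unadjusted p under 0.05 and 0 called by DESeq2. The genotypes overlapped in all 12, so 0 were higher and 0 lower without overlap, beside 15.4% and 19.0% of all genes, and the median log2 fold change was -0.12. Tsc22d3, which also answers to glucocorticoids, was at 446 and 519 CPM in STINGECKO and 467 and 519 CPM in WT, and Nampt, an enzyme of NAD synthesis, at 241 and 260 CPM in STINGECKO and 199 and 297 CPM in WT. Usp2, a ubiquitin protease on both lists and named after its values were seen, had 8 and 1226 reads in STINGECKO and 169 and 143 in WT. It stood high in STINGECKO 2, which was the highest library for 3 of the 12 output genes and 1 of the 9 members, beside 29.8% of all genes.

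**Figure D4:**
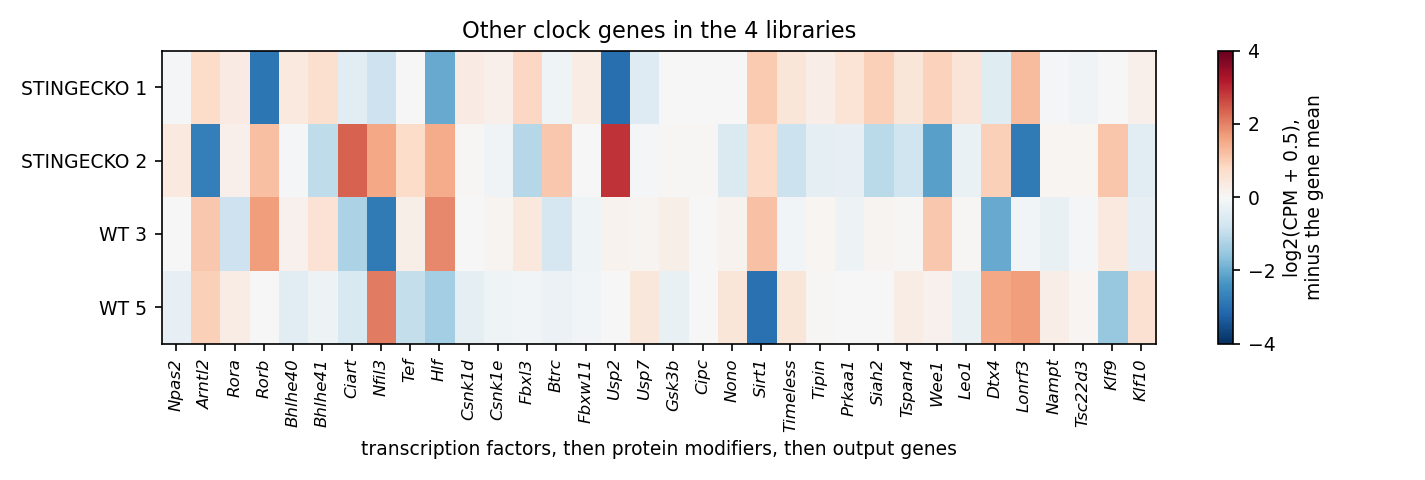
Levels of 34 other clock genes in STINGECKO 1 and 2 and WT 3 and 5, coloured by log2(CPM + 0.5) minus the mean of the gene, red above it and blue below. Columns run from transcription factors through protein modifiers to output genes; Ciart and Usp2 are red in STINGECKO 2, and most modifiers are pale in all 4 libraries.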

How the data were processed

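RNA of 2 STINGECKO and 2 WT libraries was counted per gene by the authors. Per the submitters' processing notes the tools were Bowtie2 (2.2.3), TopHat2 (2.0.12) and HTSeq (0.6.0), with build mm9; no source used here gives the strand setting or annotation. Counts deposited by the authors are whole numbers of reads. The deposited normalized columns are CPM with a 0 written as 0.5 read, and the authors' fold change (ratio), log2 and p-value columns compare 1 library with 1 library, per the file headers. Positions matched GENCODE M21 (GRCm38) exactly for 16013 of 17858 genes. A listed gene had reads in both libraries, or at least 5 in one; all columns of single libraries were assigned.

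Tables were merged by gene identifier, 20 spreadsheet-altered symbols restored, and the 14100 shared genes fitted with edgeR 4.0.16 in R 4.3.3: filterByExpr (minimum count 10), TMM, quasi-likelihood test, Benjamini-Hochberg adjustment, threshold 0.05. CPM in the text uses TMM-scaled sizes; the SE is the log2 fold change over the root of the F statistic. Levels per kilobase use GENCODE exon unions. DESeq2 1.42.0, RLE scaling, other filters, genes of one table as 0, a block by table and fits leaving out each library were the alternatives. The members and lists were chosen with earlier results of these data known. All members were named, and of each other list up to 4 tested genes of at least 5 CPM without overlap by size of change, else the 2 highest, and the 3 genes nearest to Per2.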

Additional observations from a re-analysis of the deposited data

How the results depend on the processing

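The count of called genes was 0 in the edgeR quasi-likelihood test with RLE scaling, without a filter, at a mean of at least 5 CPM, with genes of one table as 0, with a block by deposited table and without each library, and 87 in DESeq2. DESeq2 alone called a clock member, 1 of 9 (Per2); the list was chosen on this contrast, so nothing is read from that call. The other 8 members and the other clock genes gave 0 calls under every alternative. Of 90 recomputed member values, 83 kept direction and side, 1 passed (Per2) and 6 reversed: Clock to 0.11 with the table block, and 5 on leaving out a library. Leaving out each library, Clock ran from -0.88 to 1.11, Arntl from -0.32 to 1.56, Per1 from -0.41 to 0.51 and Per3 from -0.37 to 0.89. The median of the members ran from -0.32 to 0.40, that of the other transcription factors from 0.016 to 0.49 and that of the modifiers from -0.14 to 0.27; the cause was not tested. With missing values as 0, Dbp had a log2 fold change of 0.28 (SE 3.31).

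The genotypes share no replicate number, so no fit paired by number was made. The block by deposited table, which pairs STINGECKO 1 with WT 3 and STINGECKO 2 with WT 5, left 273 genes at an unadjusted p under 0.05, against 642 without it; no source used here says why libraries share a table, and across 13365 genes their deviations from the genotype means had r = -0.187. With 2 libraries a genotype, a library left out leaves its genotype without a replicate, and the lone library is assumed to vary like the others.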

Other observations

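The pattern of Per2 was shared by genes outside the clock. Ranked by Euclidean distance between centred log2 CPM values (prior count 2) over the 4 libraries, the nearest of 10298 genes were Mbd4, Slc4a8 and Apba2. Mbd4, a DNA repair glycosylase, had 1 and 0 reads in STINGECKO and 441 and 187 in WT. Slc4a8, a bicarbonate transporter, had 0 in both STINGECKO libraries and 403 and 162 in WT, and Apba2, an adaptor that binds the amyloid precursor protein, 0 in both STINGECKO libraries and 566 and 189 in WT. The nearest clock member was Cry2, at rank 1569, and Nr1d1 and Nr1d2 were at ranks 9493 and 9800.

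Glucocorticoid response genes, some of which cycle with the clock, were listed and tested in all 10 cases. The edgeR quasi-likelihood test called 0, with 1 at an unadjusted p under 0.05 (4.80% of all genes were). DESeq2 called 0 (0.651% of all were). Sgk1, a kinase, was at 299 and 140 CPM in STINGECKO and 483 and 412 CPM in WT (log2 fold change -1.03, SE 0.39, edgeR). Dusp1, a phosphatase of MAP kinases, was at 168 and 217 CPM in STINGECKO and 251 and 253 CPM in WT, and Nr3c1, the glucocorticoid receptor, at 129 and 91.6 CPM in STINGECKO and 133 and 155 CPM in WT. Nfkbia, an inhibitor of NF-kB, was at 973 and 933 CPM in STINGECKO and 878 and 810 CPM in WT. Sgk1, Dusp1, Nr3c1 and Nfkbia were picked by the naming rule because their genotypes did not overlap. Of the 10 genes, 1 was higher without overlap, beside 15.4% of all genes, and 3 were lower, beside 19.0% of all. Over the 10 genes the median log2 fold change was -0.25, with 3 above 0 and 7 below, beside -0.03 over all genes tested.

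Markers of pericytes and smooth muscle summed to 9958 and 10281 CPM in STINGECKO and 8070 and 7447 CPM in WT. Most of that sum was Rgs5, at 6849 and 7225 CPM in STINGECKO and 5591 and 4876 CPM in WT. Of the 8 tested, 4 were higher without overlap, beside 15.4% of all genes. Cspg4 and Acta2 were lower without overlap, 2 of the 8, beside 19.0% of all. Acta2 had 0 reads in both STINGECKO libraries and 31 and 55 in WT. Microglia and macrophage markers summed to 543 and 417 CPM in STINGECKO and 545 and 1433 CPM in WT. Over these 10 markers the median log2 fold change was -1.34, with 8 below 0 and 2 above. Without overlap 4 were lower (Cx3cr1, C1qb, Pf4 and Cd163), beside 19.0% of all genes, and 1 was higher (C1qc), beside 15.4%. The edgeR quasi-likelihood test called 0, with 2 at an unadjusted p under 0.05 (4.80% of all genes were). DESeq2 called 1 (0.651% of all were). Oligodendrocyte lineage markers summed to 17.1 and 1.46 CPM in STINGECKO and 16.2 and 11.7 CPM in WT. Red blood cell markers summed to 1229 and 2853 CPM in STINGECKO and 2516 and 1314 CPM in WT. WT 5, the lowest library for Clock, Arntl, Nr1d1 and Nr1d2, had the highest sum of microglia and macrophage markers. It was the highest library for 6 of those 10 markers and the lowest for 1, P2ry12. Nr1d1 differed little between WT 5 and WT 3, at 11.1 and 12.1 CPM. The part of microglia and macrophages in those clock gene values was not tested.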
